A study of Mus musculus with 5 samples.

Results

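Clone 4L is 1 of 5 clones, each grown from a single cell of Ocy454, that the study profiled. Ocy454 is an osteocyte-like line made from mouse bone cells that carry a temperature-sensitive large T antigen. The labels state that 37 clones were tested for Sost, the gene of the Wnt inhibitor sclerostin, and that the profiled clones had 7 days at 37 °C in serum-containing medium with no treatment. Low-Sost clones were 4L, 9L and 24L, and high-Sost clones were 12H and 15H. Each clone has 1 Affymetrix array of biotin-labelled RNA, so clone, culture and array cannot be told apart, and no difference below has a p-value. Nor can fewer cells of a kind be told apart from less RNA per cell. The array of clone 4L was set against the other 4 over all 23185 named genes. Genes were chosen by their value on these same arrays: lower or higher in 4L means 1 log2 (2-fold) or more outside the range of the other 4. Values are RMA log2 expression, in which a gene's levels can be compared between clones but not with another gene's. A gap is the distance of 4L from the nearest other clone outside their range, and a difference is 4L minus the mean of the other 4.

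Osteoblasts arise from mesenchymal progenitors under a small set of transcription factors, of which the zinc-finger factor Sp7 (osterix) is needed for bone formation. Mature osteoblasts secrete type I collagen and acidic matrix proteins, carry an alkaline phosphatase that frees phosphate for mineral, and respond to parathyroid hormone. Some become osteocytes embedded in the matrix, the cell type that Ocy454 is used to model.

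Clone 4L was lower in 199 of 23185 named genes (0.858%) and higher in 124 (0.535%). Without clone 24L in the comparison the counts were 280 and 228. Against the mean of the other 4, 512 genes (2.21%) were 1 log2 or more lower in 4L and 364 (1.57%) 1 log2 or more higher. The 199 lower genes had a median of 4.67 in 4L and a median of 6.94 for the mean of the other clones, and in 41 of them the gap was 2 log2 or more. Among the 124 higher genes, 15 had such a gap. The edge of the range rule fell between Cdc25b (gap 1.004) and Sp100 (0.999) for lower genes, and between S100a3 (1.004) and Mknk2 (0.997) for higher ones. Between pairs of clones, 4L and 24L differed by 1 log2 or more in 814 genes, 4L and 9L in 1026, 4L and 15H in 1045 and 4L and 12H in 1444. The 6 pairs without 4L differed in 460 (12H and 15H) to 1006 genes (12H and 24L).

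**Figure D1:**
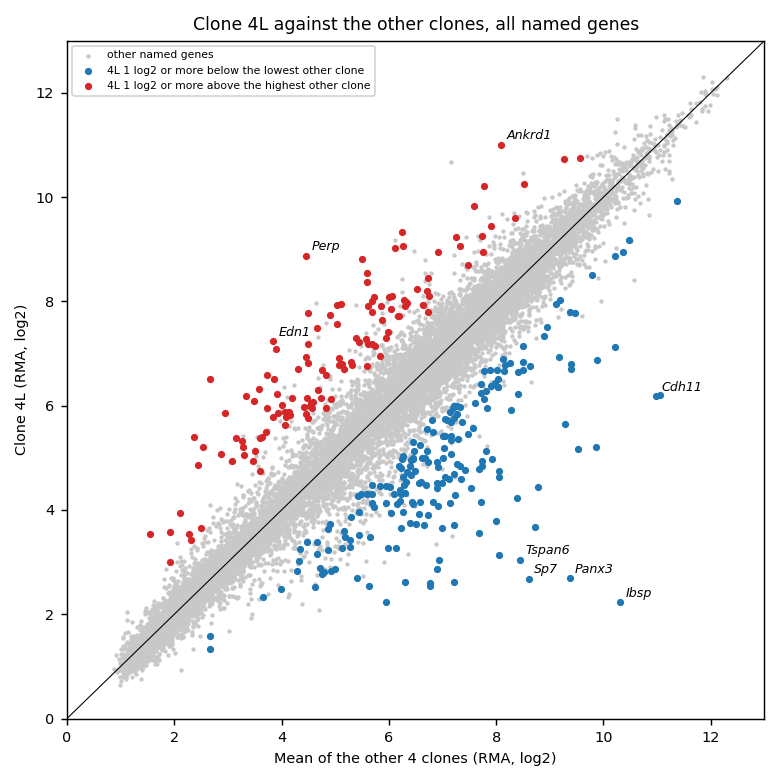
Each point is a named gene, with its mean over the other 4 clones on the x axis and its value in clone 4L on the y axis, both in RMA log2 units; the line marks equality. The 199 genes lower in 4L (blue) include Ibsp, Panx3, Sp7 and Tspan6 at the lower right, and the 124 higher genes (red) include Ankrd1 at 11.01 in 4L.

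The 2 widest gaps, of Ibsp and Panx3, were in osteoblast genes. Ibsp, the gene of bone sialoprotein, a mineral-binding matrix protein, read 2.24 in 4L, 9.56 in 9L, 8.35 in 24L, 11.80 in 12H and 11.52 in 15H. Its mean in the other clones was 10.31 ± 1.64 (SD, n = 4). Since 4L was at background for Ibsp (a level of 3.45 on that array, defined below), Ibsp was at least 116-fold lower there than this mean. Against 9L or 24L alone, which lie under the mean, the bound is smaller. Panx3, a pannexin channel of differentiating osteoblasts and chondrocytes, read 2.69 in 4L, 8.69 in 9L, 7.56 in 24L, 10.92 in 12H and 10.30 in 15H. Sp7 read 2.68 in 4L, 8.004 in 9L, 7.05 in 24L, 9.98 in 12H and 9.41 in 15H, with a mean of 8.61 ± 1.33 (SD, n = 4) in the other clones. By the same measure Panx3 was at least 60.4-fold lower in 4L than the mean of the other clones and Sp7 at least 35.7-fold lower, again with smaller bounds against 9L or 24L alone. In each of these 3 genes, 4L was below both other low-Sost clones, and among the other 4 the high-Sost clones stood above 9L and 24L.

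Cdh11, the osteoblast cadherin, read 6.19 in 4L, 10.50 in 9L, 11.33 in 24L, 11.23 in 12H and 10.82 in 15H (difference -4.79), and Tmem119, a membrane protein of the osteoblast lineage, read 5.17 in 4L, 9.35 in 9L, 8.91 in 24L, 10.30 in 12H and 9.58 in 15H (-4.37). Unlike the first 3 genes, both stayed above background in 4L. Background was the 95th percentile of 1354 olfactory and vomeronasal receptor genes, 3.45 on the 4L array and 3.37 to 3.56 on the others; a fold against a 4L value at or under it is given as a lower bound, from that level to the mean of the other clones. By this measure 4 genes (0.0173%) were at 7 or more in all other clones and at background in 4L: Ibsp, Panx3, Sp7 and Tspan6, which encodes a tetraspanin and read 3.05 in 4L, 8.42 in 9L, 7.66 in 24L, 8.58 in 12H and 9.14 in 15H. No gene (0 of 23185, 0%) was at background in the other 4 and at 7 or more in 4L. Under the 99th percentile of the receptor genes the counts were 9 and 2, and with a level of 8 they were 1 and 0.

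**Figure D2:**
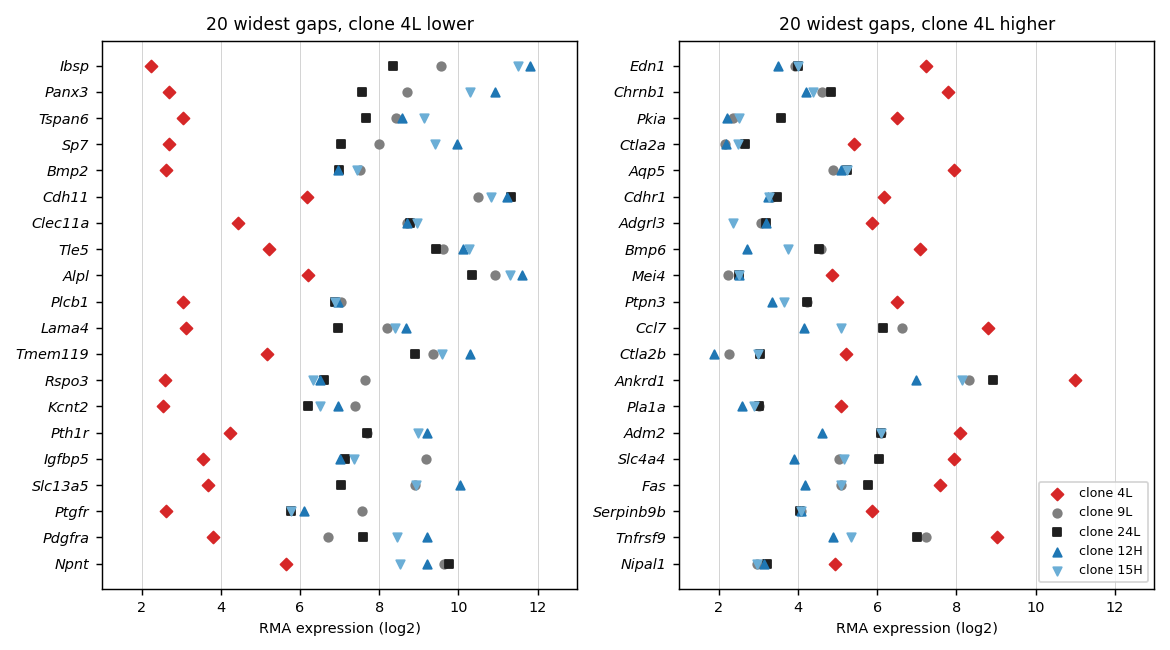
RMA log2 expression (x axis) of the 20 genes with the widest gap between clone 4L and the nearest other clone in each direction, 1 row a gene and 1 symbol a clone. Red diamonds (4L) stand apart in every row by construction; the lower genes (left) begin with Ibsp at 2.24 and the higher genes (right) with Edn1 at 7.23.

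Promoter windows are shown for 4 of these genes that have a single listed start in the RefSeq table (GRCm38.p6), 3 lower in 4L and 1 higher, to give the sequence around the start of genes that set 4L apart. Each window runs from 250 bases before to 50 after the start. Capitals mark matches, on either strand, to 5 short motifs, of which the last 3 were added after the windows had been read: the RUNX core TGTGGT, the homeodomain core TAATTA, the CCAAT box CCAAT, the TATA box TATAAA and the AP-1 motif TGANTCA.
Ibsp (chr5:104299037-104299336, + strand): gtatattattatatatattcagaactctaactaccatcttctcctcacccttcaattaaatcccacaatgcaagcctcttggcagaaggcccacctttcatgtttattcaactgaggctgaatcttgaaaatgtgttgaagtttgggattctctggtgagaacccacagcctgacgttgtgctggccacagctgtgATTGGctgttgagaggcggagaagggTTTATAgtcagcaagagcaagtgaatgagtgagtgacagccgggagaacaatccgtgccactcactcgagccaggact
Clec11a (chr7:44306910-44307209, - strand): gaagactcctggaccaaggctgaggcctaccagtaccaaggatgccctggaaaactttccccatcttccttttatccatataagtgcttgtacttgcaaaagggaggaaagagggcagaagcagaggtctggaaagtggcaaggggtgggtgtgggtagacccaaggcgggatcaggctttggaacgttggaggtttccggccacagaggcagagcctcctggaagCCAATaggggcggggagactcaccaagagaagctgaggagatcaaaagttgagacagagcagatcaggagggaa
Pdgfra (chr5:75152001-75152300, + strand): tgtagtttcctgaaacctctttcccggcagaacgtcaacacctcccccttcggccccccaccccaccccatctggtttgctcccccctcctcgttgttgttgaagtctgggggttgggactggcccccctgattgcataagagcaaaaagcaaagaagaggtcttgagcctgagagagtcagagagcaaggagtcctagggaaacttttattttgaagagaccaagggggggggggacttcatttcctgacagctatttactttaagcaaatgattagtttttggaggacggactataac
Edn1 (chr13:42301226-42301525, + strand): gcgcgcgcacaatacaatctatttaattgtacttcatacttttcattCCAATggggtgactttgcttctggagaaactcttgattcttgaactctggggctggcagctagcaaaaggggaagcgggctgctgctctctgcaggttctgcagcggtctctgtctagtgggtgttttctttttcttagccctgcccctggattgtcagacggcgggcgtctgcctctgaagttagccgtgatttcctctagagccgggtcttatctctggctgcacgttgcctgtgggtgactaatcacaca
The Ibsp window holds a CCAAT box on the reverse strand that begins 54 bases before the start and a reverse TATA box that begins 28 bases before it. Clec11a has a CCAAT box 24 bases before its start and Edn1 one at 203 bases before, and the Pdgfra window holds none of the 5 motifs.

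Over the 21141 windows of the named genes, 14.6% held the RUNX core, 4.44% the homeodomain core, 38.0% the CCAAT box, 12.1% the TATA box and 7.19% the AP-1 motif. For the lower genes, 148 of 199 had windows (198 in all), of which 10.6% held the RUNX core, 3.54% the homeodomain core, 35.9% the CCAAT box, 13.1% the TATA box and 3.03% (6 windows) the AP-1 motif. For the higher genes, 90 of 124 had windows (125 in all), with 18.4%, 4.0%, 35.2%, 14.4% and 12.0% (15 windows) for the same motifs in the same order. These shares are descriptions, and windows of 1 gene can overlap.

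Of 24 osteoblast transcription factors listed, 20 were measured, and Runx2 is not analysed here. Among these 20, 4 were lower in 4L and 0 higher (against 0.858% of all genes), and the list's median difference was -0.01. Besides Sp7, the lower members were Mef2c, Dlx5 and Dlx6. Mef2c, which acts on the Sost enhancer, read 6.80 in 4L, 9.14 in 9L, 8.62 in 24L, 10.10 in 12H and 9.73 in 15H (-2.60). The distal-less homeobox genes Dlx5 and Dlx6, which lie close together and act in bone formation, differed by -1.70 and -1.59. Dlx5 read 7.77 in 4L, 9.27 in 9L, 9.17 in 24L, 10.13 in 12H and 9.30 in 15H. Dlx1, outside the list and added after its values were seen, was also lower (4.47 in 4L and 5.59 to 5.77 in the others), whereas Dlx3 read 4.58 in 4L, 5.16 in 9L, 4.31 in 24L, 8.13 in 12H and 7.20 in 15H, with 24L below 4L. Prrx1, a mesenchymal homeobox factor, read 8.66 in 4L and 9.34 to 10.24 in the others. Twist1, Cbfb and Atf4 lay within the range of the other clones. Lef1, a transcription factor of Wnt signalling, and Sox4 were the highest in 4L of all clones (7.04 in 4L and 5.39 to 6.15 in the others for Lef1 and 9.03 in 4L and 7.68 to 8.31 in the others for Sox4), with gaps under 1 log2.

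Of 27 osteoblast matrix and surface genes measured, 9 were lower in 4L (33.3%) and 0 higher, with a median difference of -1.38 beside 0.00 for all genes. The list holds 4 of the 5 markers of the comparison, and without them the median was -1.085. Against 9L and 24L alone the median was -0.99, and against 12H and 15H alone -2.09. The 9 were Ibsp, Panx3, Cdh11, Alpl, Tmem119, Pth1r, Lrp4, Col11a1 and Serpinf1. In 17 of the 27 members 4L had the lowest value, against 4452 of all 23185 named genes. Alpl, the tissue-nonspecific alkaline phosphatase, read 6.21 in 4L, 10.93 in 9L, 10.36 in 24L, 11.61 in 12H and 11.30 in 15H, a 28.5-fold difference from the mean of 11.05 ± 0.54 (SD, n = 4). Pth1r, the receptor for parathyroid hormone, read 4.23 in 4L, 7.69 in 9L, 7.69 in 24L, 9.20 in 12H and 8.99 in 15H (-4.16). Col11a1, a minor fibrillar collagen, and Serpinf1, the gene of pigment epithelium-derived factor, differed by -2.90 and -2.69.

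Other bone matrix genes stayed high in clone 4L. Sparc, or osteonectin, read 11.66 in 4L and 11.84 to 12.06 in the others, and Postn, a periostin of collagen-rich matrix, 10.08 in 4L and 10.24 to 11.27 in the others. The type I collagen genes were the lowest in 4L with gaps under 1 log2: Col1a1 read 10.35 in 4L, 10.67 in 9L, 11.64 in 24L, 11.49 in 12H and 11.30 in 15H and Col1a2 9.66 in 4L and 10.24 to 11.19 in the others. Bglap, which encodes osteocalcin, was low in all low-Sost clones (3.74 in 4L, 4.18 in 9L, 3.45 in 24L, 6.03 in 12H and 5.62 in 15H), with 4L and 24L too close to background to be ordered. Omd, a leucine-rich proteoglycan of bone, read 8.67 in 4L, 7.35 in 9L, 9.81 in 24L, 6.56 in 12H and 6.05 in 15H, higher in 4L than in 3 of the other clones. All 5 markers of the comparison (Ibsp, Sp7, Panx3, Tmem119 and Cdh11) were lower in 4L by 1 log2 or more outside the range. They were chosen with earlier results of these data known, so this is no separate result. Of the 27 matrix and surface genes, 18 were not lower by this rule, 8 of them with their lowest value in 4L.

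**Figure D3:**
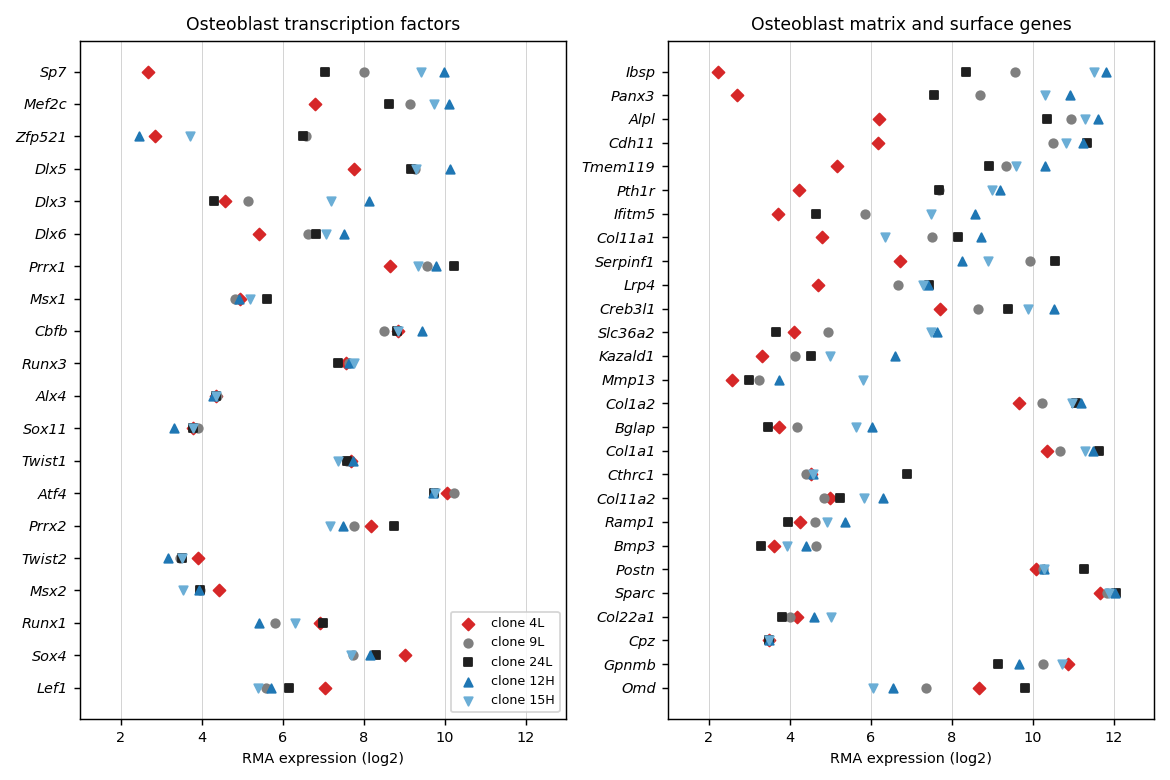
RMA log2 expression (x axis) of every measured member of the osteoblast transcription factor list (left, 20 genes) and the osteoblast matrix and surface list (right, 27 genes), sorted by the difference of 4L from the mean of the other clones, 1 symbol a clone. Ibsp, Panx3 and Sp7 stand at 2.24 to 2.69 in 4L, while Sparc and Col1a1 stay above 10 in every clone.

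Of 24 mineralization and phosphate genes measured, 3 were lower in 4L (12.5%) and 0 higher, with a median difference of -0.15. Beside Ibsp and Alpl, the third was Smpd3, a neutral sphingomyelinase needed for bone mineral (4.28 in 4L, 6.10 in 9L, 5.90 in 24L, 9.44 in 12H and 7.51 in 15H). Phospho1, the phosphatase of matrix vesicles, read 6.45 in 4L and 7.15 to 10.36 in the others, and Galnt3, a glycosyltransferase that protects the hormone FGF23 from cleavage, 5.41 in 4L and 5.97 to 8.88 in the others. Mgp, an inhibitor of mineralization, read 10.46 in 4L, 8.73 in 9L, 10.05 in 24L, 8.20 in 12H and 7.04 in 15H, highest in 4L. The phosphate transporter genes Slc20a1 and Slc20a2 differed by 0.10 and 0.54.

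Of 23 osteocyte markers measured, 1 was lower in 4L and 1 was higher (4.35% each), and the median difference was -0.31. Sost, the gene the clones were picked for, read 3.78 in 4L, 3.89 in 9L, 3.91 in 24L, 4.08 in 12H and 3.92 in 15H. All 5 values lay just over background, and neither 4L from the other low-Sost clones nor 15H from 24L can be ordered by them. Dmp1, an acidic matrix protein of osteocytes, read 2.76 in 4L, 2.54 in 9L, 2.90 in 24L, 7.45 in 12H and 5.75 in 15H, and Phex, an endopeptidase of the phosphate axis, 2.08 in 4L, 2.60 in 9L, 3.17 in 24L, 6.04 in 12H and 6.99 in 15H. Both were low in all 3 low-Sost clones. Dkk1, a secreted Wnt inhibitor, read 3.93 in 4L, 3.46 in 9L, 3.57 in 24L, 6.71 in 12H and 8.17 in 15H. The lower marker was Cd109, a membrane protein of embedding osteocytes (7.50 in 4L and 8.61 to 9.36 in the others), and the higher one Npr3, the clearance receptor for natriuretic peptides (7.74 in 4L, 5.36 in 9L, 6.47 in 24L, 3.88 in 12H and 3.93 in 15H).

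Several secreted signals and receptors of bone cells were also lower. Bmp2, a bone morphogenetic protein, read 2.62 in 4L, 7.50 in 9L, 6.98 in 24L, 6.95 in 12H and 7.44 in 15H (at background in 4L, at least 13.6-fold lower than the mean), whereas its relative Bmp6 was higher in 4L (7.09 in 4L, 4.59 in 9L, 4.54 in 24L, 2.71 in 12H and 3.76 in 15H). These were the only members 1 log2 or more outside the range among 45 TGF-beta and BMP genes, whose median difference was -0.07. Clec11a, or osteolectin, a secreted promoter of osteogenesis, read 4.44 in 4L, 8.69 in 9L, 8.79 in 24L, 8.69 in 12H and 8.95 in 15H, with the other 4 clones close together. Pdgfra, a receptor for platelet-derived growth factor on mesenchymal progenitors, read 3.79 in 4L, 6.70 in 9L, 7.60 in 24L, 9.21 in 12H and 8.46 in 15H. Igfbp5, an IGF-binding protein abundant in bone, read 3.56 in 4L, 9.18 in 9L, 7.15 in 24L, 7.00 in 12H and 7.37 in 15H (-4.11), while Igfbp7 was higher (10.21 in 4L and 6.98 to 8.81 in the others). Among 22 FGF genes 1 was lower, the receptor Fgfr3 (4.11 in 4L and 5.45 to 7.38 in the others).

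Of 53 Wnt ligands, receptors and inhibitors measured, 6 were lower in 4L (11.3%) and 1 was higher (1.89%), with a median difference of -0.06. Rspo3, an R-spondin that amplifies Wnt signals, read 2.60 in 4L, 7.64 in 9L, 6.61 in 24L, 6.51 in 12H and 6.32 in 15H (at background in 4L, at least 9.97-fold lower). Lrp4, the receptor that anchors sclerostin, read 4.69 in 4L, 6.67 in 9L, 7.44 in 24L, 7.42 in 12H and 7.29 in 15H. The frizzled receptor genes Fzd5 and Fzd8 differed by -2.66 and -1.79, the inhibitor gene Sfrp2 by -2.25 and the ligand gene Wnt5a by -1.68. Fzd6 was the higher member (8.20 in 4L and 6.64 to 6.84 in the others). Rspo2, by contrast with Rspo3, read 7.00 in 4L, 6.64 in 9L, 7.89 in 24L, 4.24 in 12H and 4.998 in 15H, with 4L between 9L and 24L. Of 28 PTH and cyclic AMP genes, Pth1r was the 1 member 1 log2 or more outside the range (median difference -0.02). Pkia, an inhibitor of protein kinase A outside the list, was higher (6.50 in 4L, 2.35 in 9L, 3.56 in 24L, 2.21 in 12H and 2.52 in 15H).

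In the matrix beyond bone, laminin and collagen genes were among the lower set. Lama4, a laminin chain, read 3.13 in 4L, 8.19 in 9L, 6.97 in 24L, 8.67 in 12H and 8.40 in 15H, Tnc, the gene of tenascin C, 6.87 in 4L, 9.53 in 9L, 9.49 in 24L, 10.05 in 12H and 10.42 in 15H, and Npnt, the integrin ligand nephronectin, 5.64 in 4L, 9.63 in 9L, 9.75 in 24L, 9.19 in 12H and 8.53 in 15H. Of 41 collagen chains, 3 were lower and 0 higher (7.32%, median difference -0.08): Col6a3 (4.74 in 4L, 7.36 in 9L, 8.70 in 24L, 8.03 in 12H and 8.10 in 15H), Col11a1 and Col5a1 (6.51 in 4L and 8.01 to 8.11 in the others). The collagen-processing list had 2 lower of 27, the prolyl hydroxylase subunit P4ha1 (-1.28) and P3h4 (-1.11). Among 49 proteoglycans and glycoproteins, 4 were lower (Lama4, Tnc, Nid2 and Fmod) and 1 higher (Fbln2, 9.59 in 4L and 7.99 to 8.50 in the others). Of 37 metalloproteases and TIMPs, 1 was lower, Mmp23 (4.67 in 4L and 6.05 to 6.92 in the others).

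Adhesion and guidance genes differed in single members. Among 20 integrins, Itga11, a collagen receptor subunit, was lower (4.59 in 4L, 6.66 in 9L, 7.995 in 24L, 7.61 in 12H and 7.10 in 15H) and Itga6, a laminin receptor subunit, higher (6.80 in 4L, 5.44 in 9L, 5.39 in 24L, 4.23 in 12H and 5.44 in 15H). The 36 cadherins had 2 lower, Cdh11 and Fat3 (2.81 in 4L and 4.13 to 5.67 in the others). Of 20 ephrins and Eph receptors, Epha3 (4.14 in 4L, 6.93 in 9L, 8.51 in 24L, 7.08 in 12H and 8.33 in 15H) and Efnb1 (5.91 in 4L and 7.68 to 9.17 in the others) were lower and Ephb6 higher (6.71 in 4L and 4.94 to 5.35 in the others). Among 37 semaphorins, plexins, Slits and Robos, 1 was lower, the ligand Slit3 (3.75 in 4L and 5.76 to 7.20 in the others), and among 19 pannexins and connexins Panx3 was the 1 member 1 log2 or more outside the range. Gja1, the gene of connexin 43 that joins osteocytes, read 6.47 in 4L, 7.22 in 9L, 8.13 in 24L, 8.79 in 12H and 8.39 in 15H, a gap of 0.75.

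The other genes among the 20 widest gaps were of mixed function. Tle5, a short member of the Groucho corepressor family, read 5.21 in 4L, 9.61 in 9L, 9.44 in 24L, 10.11 in 12H and 10.28 in 15H (-4.65). Its relatives, looked at after its value was seen, went both ways, with Tle4 lower (3.51 in 4L and 4.89 to 6.05 in the others) and Tle1 higher (6.05 in 4L and 4.01 to 4.75 in the others). Slc13a5, a citrate transporter of bone-forming cells, read 3.68 in 4L, 8.91 in 9L, 7.04 in 24L, 10.03 in 12H and 8.93 in 15H. Plcb1, a phospholipase C, read 3.04 in 4L and 6.88 to 7.05 in the others, Kcnt2, a potassium channel, 2.54 in 4L and 6.20 to 7.39 in the others, and Ptgfr, the prostaglandin F receptor, 2.62 in 4L and 5.77 to 7.56 in the others. All 3 were at background in 4L, and Plcb1 was at least 11.2-fold lower there.

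Of 38 Hox genes measured, 0 were 1 log2 or more outside the range, with a median difference of -0.04, and the member with the largest difference was Hoxa5 (4.18 in 4L, 4.66 in 9L, 4.32 in 24L, 5.75 in 12H and 5.04 in 15H). Among 56 limb and skeletal patterning factors, 4 were lower (7.14%) and 0 higher: Nfia (4.13 in 4L, 6.25 in 9L, 7.87 in 24L, 7.49 in 12H and 6.97 in 15H), Irx3 (6.69 in 4L and 8.28 to 8.91 in the others), Shox2 (6.42 in 4L and 7.56 to 8.13 in the others) and Pax3 (4.99 in 4L and 6.01 to 7.61 in the others). Of 33 imprinted genes, 2 were lower, Mest (4.97 in 4L, 7.78 in 9L, 9.40 in 24L, 7.04 in 12H and 7.45 in 15H) and Impact (4.42 in 4L and 5.51 to 7.61 in the others).

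Of 41 cell cycle genes measured, 27 had their lowest value in 4L, against 4452 of all 23185 named genes. The median difference was -0.50, and 5 genes were lower (12.2%) and 0 higher. They were the mitotic kinase genes Plk1 (6.79 in 4L and 8.12 to 8.32 in the others) and Aurka (6.44 in 4L and 7.76 to 8.12 in the others), Rrm2 of deoxynucleotide synthesis (6.35 in 4L and 7.56 to 8.88 in the others), the kinetochore gene Cenpf (5.74 in 4L and 6.80 to 7.26 in the others) and Cdc25b (5.72 in 4L and 6.72 to 6.87 in the others). Mki67 read 7.63 in 4L and 8.56 to 8.99 in the others. The replication licensing gene Mcm2 read 9.85 in 4L and 9.47 to 10.09 in the others, and Mcm7 10.68 in 4L and 10.21 to 10.38 in the others. Of 35 canonical histone genes, a set formed after their values were seen, 6 were lower (against 0.858% of all genes) and 0 higher. The median difference was -0.35. Among the 6 were H2ac11 (5.42 in 4L and 6.97 to 7.14 in the others), H1f1 (4.44 in 4L and 5.78 to 6.63 in the others) and H2ac21 (6.35 in 4L and 7.70 to 8.68 in the others).

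Of 27 p53 targets and cell cycle inhibitors, 2 were higher (7.41%) and 0 lower, with a median difference of 0.41. They were Perp, a desmosome-associated p53 target (8.88 in 4L, 3.79 in 9L, 7.29 in 24L, 3.31 in 12H and 3.44 in 15H), and Fas, the death receptor (7.57 in 4L, 5.09 in 9L, 5.76 in 24L, 4.18 in 12H and 5.09 in 15H). Cdkn1a, the p21 gene, read 10.45 in 4L and 10.12 to 11.23 in the others, within the range of the other clones. Cdkn2b, the gene of the p15 inhibitor, Gadd45a and Gadd45b were highest in 4L with differences of 1.21, 1.13 and 1.17.

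The widest gap among higher genes was in Edn1, which encodes the vasoconstrictor and growth factor endothelin-1 (7.23 in 4L, 3.92 in 9L, 3.99 in 24L, 3.48 in 12H and 3.99 in 15H), a gap of 3.24, with 12H at background. Chrnb1, a subunit of the muscle acetylcholine receptor, read 7.79 in 4L, 4.61 in 9L, 4.83 in 24L, 4.20 in 12H and 4.37 in 15H, and Aqp5, a water channel of secretory epithelia, 7.95 in 4L, 4.88 in 9L, 5.24 in 24L, 5.07 in 12H and 5.24 in 15H. Ankrd1, an ankyrin-repeat gene and YAP target, reached 11.01 in 4L, 8.31 in 9L, 8.91 in 24L, 6.98 in 12H and 8.15 in 15H. Adm2, a peptide of the adrenomedullin family, read 8.09 in 4L, 6.10 in 9L, 6.08 in 24L, 4.60 in 12H and 6.10 in 15H, and Slc4a4, a bicarbonate cotransporter, 7.93 in 4L, 5.04 in 9L, 6.05 in 24L, 3.91 in 12H and 5.15 in 15H. The rest included the photoreceptor cadherin Cdhr1 (6.18 in 4L and 3.24 to 3.47 in the others), the latrophilin Adgrl3 (5.86 in 4L and 2.37 to 3.18 in the others), the phosphatase Ptpn3 (6.51 in 4L and 3.35 to 4.24 in the others), the meiotic gene Mei4 (4.87 in 4L and 2.22 to 2.51 in the others), the phospholipase Pla1a (5.08 in 4L and 2.59 to 3.01 in the others), Nipal1 (4.94 in 4L and 2.96 to 3.22 in the others) and the protease inhibitor genes Ctla2a (5.40 in 4L and 2.17 to 2.66 in the others), Ctla2b (5.21 in 4L and 1.87 to 3.04 in the others) and Serpinb9b (5.88 in 4L and 4.04 to 4.08 in the others). Ctla2a and Ctla2b are close relatives, so probes may not tell them apart.

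Of 40 inflammatory and chemokine genes measured, 5 were higher in 4L (12.5%, against 0.535% of all genes) and 0 lower, with a median difference of 0.00. Above background were 25 of the 40 in 4L, against 22 to 25 in the others. The chemokine gene Ccl7 read 8.81 in 4L, 6.63 in 9L, 6.14 in 24L, 4.15 in 12H and 5.08 in 15H, its neighbour Ccl2 8.54 in 4L, 6.99 in 9L, 6.22 in 24L, 4.15 in 12H and 5.02 in 15H and Ccl5 7.50 in 4L, 5.49 in 9L, 6.21 in 24L, 3.06 in 12H and 3.84 in 15H. Cxcl16 (6.92 in 4L and 4.41 to 5.56 in the others) and Il34, a ligand of the CSF1 receptor (5.86 in 4L and 3.71 to 4.25 in the others), were the other members. In the 3 Ccl genes the high-Sost clones were the lowest and 9L and 24L lay between them and 4L. Vcam1, an adhesion molecule, was close to 4L in 24L (8.11 in 4L, 5.19 in 9L, 8.14 in 24L, 4.53 in 12H and 4.97 in 15H).

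A set of 15 genes of NF-kappaB signalling and the TNF family was formed after their values were seen, so its counts test nothing. Of the 15, 14 had their highest value in 4L, against 4653 of all 23185 named genes. By the range rule 8 were higher in 4L, against 0.535% of all genes, and 0 were lower. They included the receptor Tnfrsf9 (9.02 in 4L, 7.22 in 9L, 7.00 in 24L, 4.87 in 12H and 5.34 in 15H), the adaptor Traf1 (5.38 in 4L and 3.34 to 3.77 in the others), the NF-kappaB subunit Relb (8.10 in 4L and 6.36 to 6.96 in the others) and the inhibitor family genes Bcl3 (6.83 in 4L and 5.16 to 5.47 in the others) and Nfkbie (7.92 in 4L and 5.09 to 6.52 in the others). Tnfaip3 and Nfkbia, feedback inhibitors of the pathway, differed by 1.35 and 1.08 without passing the gap. Of 33 interferon response genes, 1 was higher, Cxcl10 (7.28 in 4L and 4.81 to 6.12 in the others), and 1 was lower, Dhx58 (4.46 in 4L and 5.54 to 6.67 in the others), with a median difference of -0.32.

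Markers of other cell types were checked in the same way. Chondrocyte (20 measured), smooth and skeletal muscle (24), epithelial (22), neural and glial (22) and blood and endothelial markers (20) had 0 members 1 log2 or more outside the range in either direction, with median differences between -0.03 and 0.01. Their largest differences from the mean were Hapln1 (-1.45) and Actg2 (-1.71), both at background in 4L, Krt14 (0.62), Gap43 (0.97) and Cd68 (1.27). Epithelial markers reached no more than 5.46 in any clone, and 13 of 22 were above background in 4L against 11 to 13 in the others. Of the blood and endothelial markers, 7 of 20 were above background in 4L against 5 to 7. Adipocyte markers had 1 lower (Car3, 3.27 in 4L and 4.45 to 8.73 in the others) and 1 higher (Plin4, 5.83 in 4L and 3.95 to 4.31 in the others) of 17. Tendon and fibroblast markers had 2 lower of 22 (Tnc and Fmod) and stromal progenitor and pericyte markers 2 lower of 21 (Pdgfra and Nt5e, 6.13 in 4L and 7.16 to 8.41 in the others), with 0 higher in both.

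Of the 41 lists, 26 had a lower member, 11 a higher one and 13 neither, beside 0.858% of all named genes lower and 0.535% higher. Lists of many genes can hold a member at those shares, and lists share members. Panx3, for example, is the only lower gene of the pannexins and connexins and also an osteoblast matrix and surface gene. The counts of lists therefore do not measure how widely 4L differed. The lists with neither included hedgehog (16 measured) and Notch genes (22), cholesterol and fatty acid synthesis genes (27, median difference -0.29), unfolded protein response and secretory genes (33, median -0.28), V-ATPase and lysosome genes (29), respiratory chain subunits (32) and ribosomal proteins (25, median 0.13). Their largest differences were in Gli2 (-1.34), Hes1 (-1.34), Hsd17b7 (-0.91), Creb3l1, which drives collagen secretion (7.72 in 4L, 8.65 in 9L, 9.39 in 24L, 10.51 in 12H and 9.87 in 15H), Ctsk, a collagen-degrading cathepsin (3.50 in 4L, 8.35 in 9L, 4.48 in 24L, 7.85 in 12H and 8.02 in 15H), Cox7b (0.84) and Rpl9, which was at background in all 5 clones. The gap of Ctsk was 0.98, since 24L was also low. Hypoxia and glycolysis genes had 2 lower of 27, the glucose transporter gene Slc2a3 (4.15 in 4L, 7.27 in 9L, 6.23 in 24L, 6.60 in 12H and 6.23 in 15H) and P4ha1, with a median of -0.19.

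**Figure D4:**
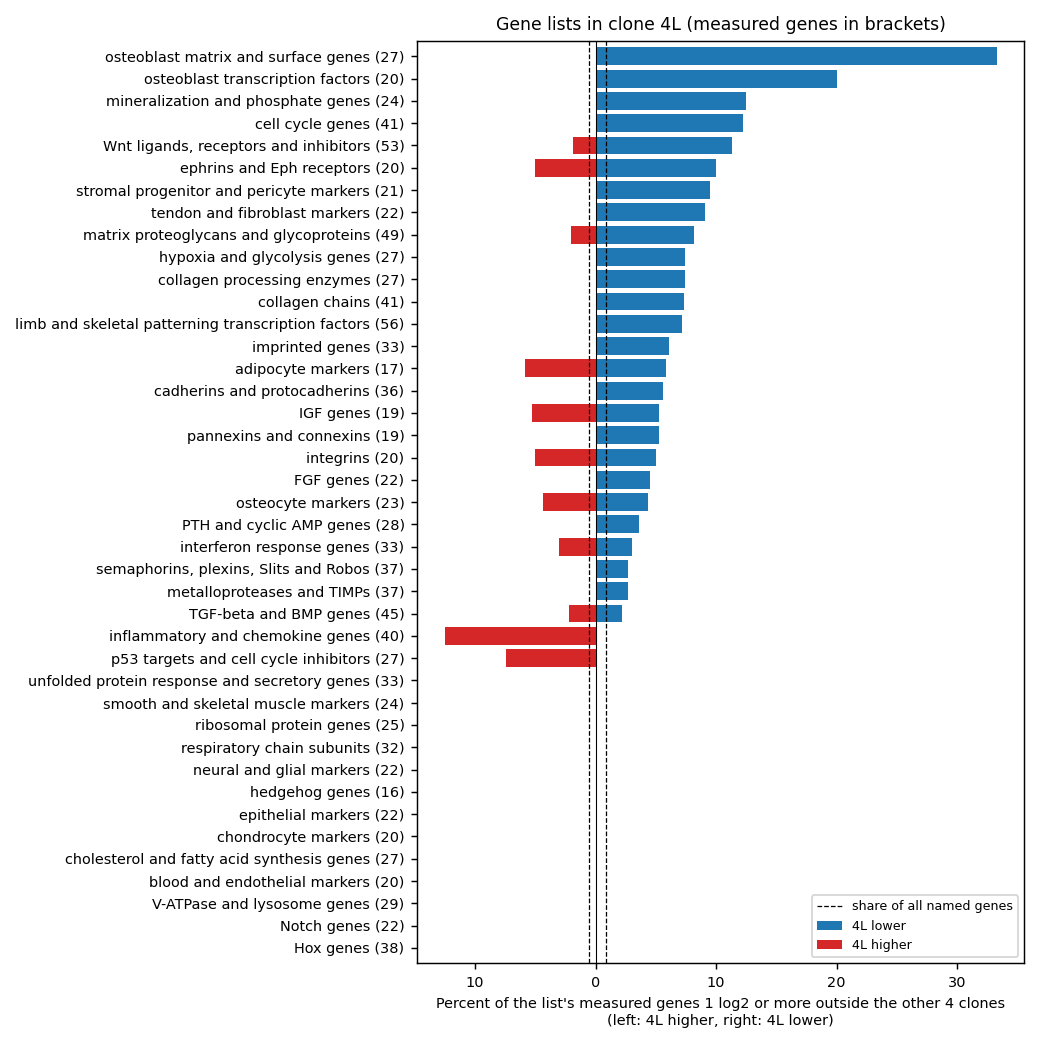
Percent of each list's measured genes (number in brackets) that lay 1 log2 or more outside the other 4 clones, to the right where 4L was lower and to the left where it was higher; dashed lines mark the shares of all named genes, 0.858% and 0.535%. The osteoblast matrix and surface list has the longest bar to the right (33.3%) and the inflammatory list the longest to the left (12.5%).

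The other 4 clones were not alike in the genes that set 4L apart. Among the 199 lower genes, 24L was the lowest of the other 4 in 94, 9L in 32, 12H in 26 and 15H in 25, with 22 ties. Over all 23185 named genes 24L was the lowest of the other 4 in 5093, with 4763 ties. Both high-Sost clones lay above both 9L and 24L in 68 of the 199 (34.2%), against 12.0% of all named genes, and below them in 17 (8.54%, against 11.1%). Among the 124 higher genes, 24L was the highest of the other 4 in 69 (over all 23185 genes in 4760, with 4543 ties). Both high-Sost clones lay below 9L and 24L in 59 of the 124 (47.6%) and above them in 1 (0.806%). The range rule reads the same values, so these shares describe the genes and test nothing. The osteoblast matrix and surface list had a median high-minus-low difference of 1.03 with 4L among the low-Sost clones and 0.81 without it, which are comparisons that share the high-Sost arrays.

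Median differences of 4L stood away from 0 on some chromosomes. Over 474 genes of chromosome 1 with a mean level of 6 or more, the median difference was -0.33 and 86.9% of the genes were below the mean of the other clones; against each other clone in turn the median lay between -0.44 (9L) and -0.26 (12H). Chromosome 13 had a median of 0.36 over 287 genes (0.28 to 0.40 against single clones) and chromosome 15 one of 0.28 over 347 genes, where the value against 9L was 0.00 and that against 12H 0.53. Chromosome 14 had -0.21 over 250 genes, and the remaining chromosomes lay between -0.16 and 0.11. Of the 199 lower genes 24 lay on chromosome 1 (1.87% of its named genes, against 0.858% of all). Chromosome 2 held 25 (1.31%) and chromosome 9 held 19 (1.46%), at medians of -0.06 and 0.03. Of the 124 higher genes 11 lay on chromosome 13 (1.24%, against 0.535% of all), Edn1, Bmp6, Ctla2a, Ctla2b and Serpinb9b among them, and 13 on chromosome 15 (1.49%). With the chromosome medians subtracted (a step added after the data were seen) from 4L, 184 genes were lower and 123 higher, of which 170 and 110 were in the first sets, and the median of the osteoblast matrix and surface list was -1.41. DNA copy number was not measured here, and its part in these shifts was not tested.

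**Figure D5:**
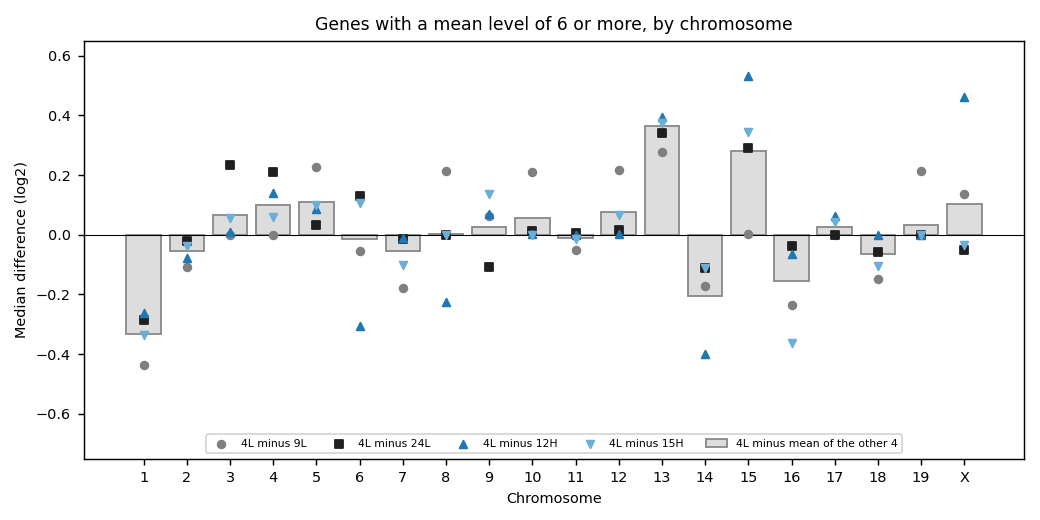
Median log2 difference (y axis) of clone 4L from the mean of the other 4 clones (bars) and from each of them (symbols), over genes with a mean level of 6 or more on each chromosome (x axis). Chromosome 1 lies below 0 and chromosome 13 above 0 against all 4 clones, while the bar of chromosome 15 comes from 3 of them.

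Pairs of genes were called adjacent where no other named gene came between them in the order of starts. Among the lower genes 4 adjacent pairs were found, among them the histone genes H2ac20 and H2ac21. Among the higher genes 5 pairs were found, among them Ccl2 with Ccl7 and Hivep1 with Edn1. Dlx5 and Dlx6 were not a pair by this rule, and no expected number of pairs was worked out. Of 538 microRNA gene rows, which the naming rule leaves out, 2 were higher in 4L and 0 lower, both named after their values were seen. Of all named genes 0.535% were higher and 0.858% lower, so the count of 2 is not a result about microRNA genes. Mir31 read 6.15 in 4L and 4.44 to 4.86 in the others, and Mir27b, on chromosome 13, read 6.0 in 4L and 3.95 to 4.83 in the others. A gene array cannot tell a precursor from its host transcript or a mature arm from the other. The mature sequences of both genes, from RefSeq (GRCm38.p6), are given with bases 2 to 8 (the seed, which pairs with targets) in capitals, and no seed is shared between the 4.
mmu-miR-31-5p: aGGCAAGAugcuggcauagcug
mmu-miR-31-3p: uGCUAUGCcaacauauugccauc
mmu-miR-27b-5p: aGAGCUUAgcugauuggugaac
mmu-miR-27b-3p: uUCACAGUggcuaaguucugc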

How the data were processed

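RNA of 5 Ocy454 clones was measured on 1 array each. The deposited values are log2 expression per probe set made by the authors. RMA, R 2.15.1 and affy 1.36.1 stand in the submitters' processing notes, which give no order of use; for the chip definition and genome build, no source used here gives one. RMA brings arrays to 1 distribution, so it removes a shift that most genes of an array share, and fold differences near background are understated. Array medians over named genes lay between 4.13 and 4.16. The 1 array per clone limits the precision.

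Genes were assigned with the platform annotation; 23185 of 25206 had 1 gene, 0 had several, and 2021 unnamed ones were left out. All 23185 matched a RefSeq gene table (GRCm38.p6) by Entrez number. For each gene, the value of 4L was compared with the mean and the range of the other 4 clones, in Python 3.11.15 with pandas 2.3.3 and numpy 2.4.6; figures used matplotlib 3.10.9. The SD over the other 4 clones holds clone and group differences. No test was run: 4L is 1 array and its values chose the genes. The step was run on simulated arrays with little noise and shifts larger than the limit, and it found all the shifts. That checks the code and not the calls on these arrays. The 41 lists held 1264 entries, of which 1194 were measured and 70, such as Runx2 and Spp1, are not analysed here. A gene may stand in several lists.

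Members and lists were chosen with earlier results of these data known. Named were 5 markers, the 20 widest gaps per direction, up to 5 members of each list per direction or else the one with the largest difference, the genes at the edge of the rule and those at background in 4L alone, without predicted genes, sensory receptors and small RNAs (108 genes). Other names were added with values known. Alternatives left out single clones, rescaled the arrays, changed limits or used 2 clones as the comparison.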

Additional observations from a re-analysis of the deposited data

How the results depend on the processing

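The median of the osteoblast matrix and surface list stayed negative in every alternative run on it. Leaving out each other clone in turn gave 223 to 280 lower genes, 127 to 228 higher genes (the highest without 24L) and 4 to 6 genes at background in 4L alone. None of these counts could fall, since a gene set apart from all other clones is also set apart from fewer of them. Shifting the arrays to 1 median, normalizing again by quantiles, leaving out the dimmest 30% of genes and subtracting chromosome medians (added after the data were seen) left all counts within 1.5 times. Against 12H and 15H alone, 406 genes were lower and 366 higher outside the range, 550 were 1 log2 or more over the mean, 8 were at background in 4L and 4 above background in 4L alone, and the list median was -2.091; fewer clones make a range easier to leave. Against 9L and 24L alone the list median was -0.989, and without the 5 marker genes it was -1.085. With 2 log2 in place of 1, 41 genes were lower and 15 higher by range, and 110 and 62 by mean, counts that a stricter limit can only lower. The 99th percentile of the receptor genes gave 9 genes at background in 4L and 2 above it in 4L alone, and a level of 8 gave 1 of the former. None of the differences of the 108 genes named by rule that passed the gap changed sign in the 8 settings run on them. Passing the gap fixes the sign when a clone is left out or the median is used, so those settings could not change it. No paired analysis was possible because each clone has 1 array and the labels name clones, not replicate numbers; numbers within the groups are only counters. With 1 array of 4L, culture, array and clone cannot be told apart, and values near background carry no order.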
